A study of Mus musculus with 9 samples.

Results

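The arrays described here are those of the control mice of a colitis study, 5 arrays of macrophages from 5 LysMCre mice out of 9 arrays in the whole series. They were chosen by the genotype label LysMCre alone, with no measured value used. LysMCre mice carry Cre recombinase in the LysM (Lyz2) locus, which is active in macrophages and in neutrophils, and both of their Arnt alleles are intact. The remaining 4 arrays came from LysMCre;Arntfl/fl mice, which carry the same Cre and floxed Arnt alleles that it deletes in myeloid cells. All animals were female C57BL/6 mice that were housed together, drank water with 3% dextran sodium sulfate (DSS) for 5 days and plain water for 3 days, and gave lamina propria cells sorted as CD45+, CD11b+ and F4/80+ on Day 8, with 1 mouse per array. There was no undamaged colon among these samples, so every value below belongs to the inflamed tissue, and apart from Arnt no level is set against the other genotype. The questions were which genes gave the brightest signal in the control macrophages, which genes differed most between 5 mice treated alike, and which marker genes differed together.

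DSS injures the colonic epithelium, and monocytes from the blood enter the lamina propria, where they mature into macrophages next to the resident ones. Lamina propria macrophages take up dying cells and bacteria, digest them in lysosomes, present antigen on MHC class II and release cytokines such as IL-1β and TNF. Neutrophils, lymphocytes, fibroblasts and epithelial cells lie beside them, and the gate used here is made to leave those cells out.

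Values are log2 RMA signals of Affymetrix Mouse Gene 2.0 arrays. A gene is represented by its brightest probe set with a single gene symbol, which gave 22180 genes, and values are listed in the order of replicates 1 to 5. Signals of different probe sets are not on a scale of transcript number, so an order of brightness is an order of signals. As a mark of dim signal, 95 of 100 olfactory receptor genes lay below 6.11, and values under that level are called dim. Not every printed value under 6.11 is marked again below, and none of them can be told from background. The arrays had nearly the same distribution, with medians between 5.98 and 6.04, and any pair of LysMCre arrays correlated between 0.979 and 0.990 across genes. Arnt itself lay between 9.31 and 9.54 on the LysMCre arrays and between 8.60 and 8.84 on the LysMCre;Arntfl/fl arrays. Xist lay between 11.30 and 11.63 and 3 Y-linked genes between 3.07 and 3.81, as the label of female mice has it.

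Most genes hardly differed between the 5 mice. The median SD was 0.167 and the median distance between the highest and the lowest array was 0.413 on the log2 scale. In 1289 genes, 5.81% of all, the highest array exceeded the lowest by more than 2-fold (range over 1 on the log2 scale), in 174 genes by more than 4-fold and in 41 by more than 8-fold. By level, 1 of 132 genes with a mean from 12 to 13 and 0 of 28 genes at 13 or more spanned more than 2-fold. The share was 4.54% from 10 to 12, 6.21% from 8 to 10 and 8.09% from 6 to 8, and it was 4.29% from 4 to 6 and 3.05% below 4. Since no contrast was made, all of these are descriptions of 5 mice without a test.

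**Figure D1:**
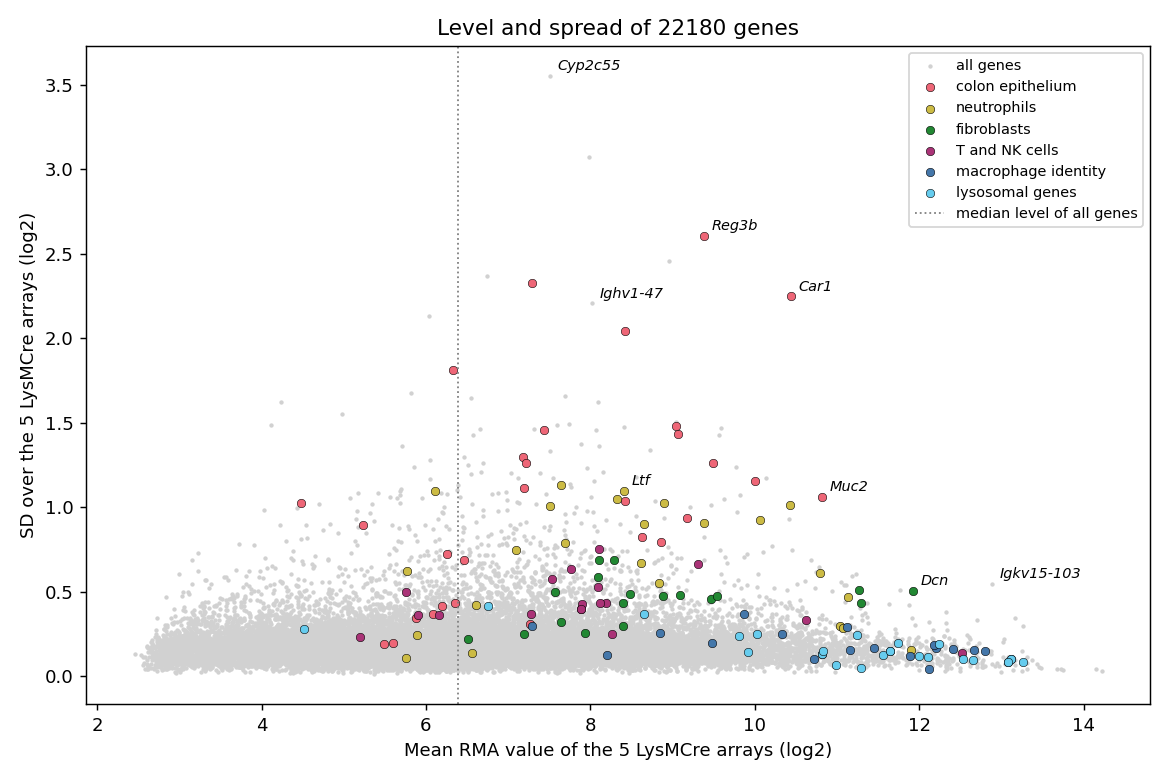
Mean RMA value (x axis, log2) and SD (y axis, log2) of 22180 genes over the 5 LysMCre arrays, with members of 6 gene lists in colour and the median level of all genes as a dotted line. Macrophage and lysosomal genes lie low and to the right, while Cyp2c55 (SD 3.55), Reg3b (SD 2.61) and other epithelial genes lie far above the rest.

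The gate genes and most macrophage genes gave bright signals on all 5 arrays. Ptprc, which encodes CD45, had values of 12.26, 12.23, 11.996, 11.96 and 12.11. Itgam, which encodes CD11b, had values of 11.997, 11.96, 11.44, 11.77 and 11.79. Adgre1, which encodes F4/80, had values of 10.98, 11.37, 10.93, 10.87 and 11.29. Replicate 3 or 4 was lowest for each of the 3 gate genes, and their median SD was 0.220, above the 0.167 of all genes. Of 21 measured macrophage identity genes 16 had a mean of 10 or more, where 5.59% of all genes reached that level, and 0 of 21 spanned more than 2-fold. Csf1r, the receptor for the growth factor that macrophages depend on, averaged 12.20 ± 0.16 (SD, n = 5, as in all means below). Cd14, the co-receptor for lipopolysaccharide, was the steadiest of the list at 12.12 ± 0.04, and the cathepsin genes Ctsb and Ctss averaged 13.11 ± 0.10 and 13.09 ± 0.09. C1qa and C1qb, chains of complement C1q that tissue macrophages secrete, averaged 12.18 ± 0.18 and 12.41 ± 0.16. Lyz2, the locus that carries the Cre, averaged 8.20 ± 0.12, with its highest value in replicate 4 at 8.38. The least even member was Mertk, a receptor for apoptotic cells, with values of 10.10, 10.39, 9.55, 9.54 and 9.78, lower in replicates 3 and 4 than in replicates 1 and 2.

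A small tilt showed in the median of the macrophage list, but not in every gene: 2 were highest in replicate 4 and 2 in replicate 5. The median deviation of its 21 genes from their own means was 0.07, 0.14, -0.17, -0.08 and 0.03, a distance of 0.31 between replicate 2, which was highest for 11 genes, and replicate 3, which was lowest for 10. Mrc1, a mannose receptor, Fcgr1, an IgG receptor, and Spi1, the myeloid transcription factor PU.1, all had their lowest value in replicate 3 or 4, and their SDs were 0.29, 0.25 and 0.26. Of the genes of mature colonic macrophages 0 of 16 spanned more than 2-fold and the list profile stayed within 0.17, but the median SD of its genes was 0.219, against 0.156 in the identity list and 0.167 over all genes. Among them Cx3cr1, the fractalkine receptor of resident macrophages, had values of 10.08, 10.001, 9.42, 9.54 and 9.84, and Ccl8, a chemokine, spread most with values of 10.82, 11.80, 11.21, 11.30 and 11.59. Timd4, a receptor of long-lived resident macrophages, averaged 6.85 ± 0.28, and Vsig4, a complement receptor of resident macrophages in other organs, was dim at 3.84 ± 0.11.

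Among the 50 brightest genes 7 were immunoglobulin genes, 5 encoded cytosolic ribosomal proteins and 4 were encoded by mitochondria. H2-Ab1, the beta chain of MHC class II I-A, had values of 13.68, 13.75, 13.67, 13.66 and 13.65, which makes it the brightest named gene outside the immunoglobulin loci. B2m, the light chain of MHC class I, averaged 13.46 ± 0.05, Fth1, the iron-storing ferritin heavy chain, 13.31 ± 0.08, and Psap, the precursor of the lysosomal saposins, 13.27 ± 0.08. Il1b, the gene of IL-1β, had values of 13.47, 13.45, 13.36, 13.52 and 13.35, so the 5 mice could hardly be told apart by it. Its relative Il1a averaged 12.87 ± 0.15, Lilrb4a, an inhibitory receptor of myeloid cells, 13.37 ± 0.09, and Clec4e, the receptor Mincle for microbial glycolipids, 13.08 ± 0.12. Thbs1, the matrix protein thrombospondin 1, averaged 13.03 ± 0.22. Hspa1a, an inducible HSP70 chaperone, was less even at 13.36, 12.85, 13.08, 13.58 and 13.45, lowest in replicate 2.

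Immunoglobulin genes were at the top although B and plasma cells lie outside the gate. Igkv5-43 averaged 14.23 ± 0.03, the highest mean of all genes, and Ighm, the constant region of IgM, 14.16 ± 0.04. Jchain, which joins polymeric IgA and IgM, averaged 13.31 ± 0.11. These 3 were almost equal in the 5 mice, but other members of the class were not: 14 of 23 immunoglobulin genes had a mean of 10 or more, and 10 of 23 spanned more than 2-fold. Igkv15-103, with 13.12, 13.34, 12.90, 11.96 and 13.14, was the 1 gene of the brightest 50 that spanned more than 2-fold, and its low value was in replicate 4. Ighv1-47 had values of 5.05, 10.44, 7.01, 7.65 and 9.95, highest in replicates 2 and 5 and dim in replicate 1, so no fold is given. Igkv9-124 had another pattern, with 7.41, 8.04, 10.25, 7.81 and 9.29, highest in replicate 3. Variable segments of this family resemble each other in sequence, so their probe sets may share signal. Vmn1r233 carries the name of a vomeronasal receptor, a gene of another tissue, and was also among the brightest at 13.14 ± 0.04. It was the only 1 of 289 vomeronasal receptor genes with a mean of 10 or more.

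Several functional groups were bright and spanned more than 2-fold about as seldom as the 5.81% of all genes. MHC class II genes counted 10 of 14 at 10 or more and 0 of 14 over 2-fold, with a median SD of 0.185: H2-Aa averaged 13.14 ± 0.09, H2-Eb1 12.92 ± 0.06 and the costimulatory ligand Cd86 12.30 ± 0.24. Lysosomal genes counted 17 of 22 at 10 or more and 1 of 22 over 2-fold, which was Ctsk, a collagen-cleaving cathepsin, with 6.74, 6.11, 7.21, 6.69 and 7.01. Lamp2, a lysosomal membrane protein, averaged 11.29 ± 0.05, and Npc2, a cholesterol carrier of the lysosome, 10.99 ± 0.06. Immediate early and heat shock genes, which cells induce within minutes of a stimulus or of tissue digestion, counted 14 of 24 genes at 10 or more and 1 of 24 over 2-fold, and their list profile stayed within 0.04, or within 0.09 after a further quantile normalization, and within 0.02 without replicate 4 and 0.07 without replicate 3. Fosb averaged 12.49 ± 0.05, Junb 12.32 ± 0.05 and Dusp1, a phosphatase that shuts off MAP kinases, 12.97 ± 0.06. The single member over 2-fold was Klf2, a transcription factor that restrains macrophage activation, with 7.46, 8.06, 8.57, 8.10 and 7.88.

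Cytoskeletal genes counted 0 of 13 over 2-fold with a median SD of 0.157, and HIF target genes 1 of 20, or 5%, with a median SD of 0.195, so neither lay far from the 5.81% and 0.167 of all genes. Vegfa, the angiogenic factor, averaged 11.71 ± 0.28, Slc2a1, the glucose transporter GLUT1, 11.49 ± 0.13, and Gapdh, a glycolytic enzyme, 12.33 ± 0.05. Adm, the vasodilator peptide adrenomedullin, was the single member over 2-fold, with 7.96, 7.17, 8.61, 9.13 and 7.81. Among genes with a mean of 10 or more the smallest SDs belonged to Rpl29, a ribosomal protein, at 10.98 ± 0.02, Nfkbia, the inhibitor of NF-κB that NF-κB itself induces, at 12.99 ± 0.03, and Eef1a1, the translation elongation factor, at 13.25 ± 0.03. Bcl2a1a, a survival factor of activated myeloid cells, averaged 12.002 ± 0.04, with replicate 5 highest at 12.07 and the other arrays between 11.98 and 11.99. Signals this bright may have little room to differ on an array, and whether that sets their small SD was not tested.

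The largest differences between the 5 mice lay in epithelial genes. Cyp2c55, a cytochrome P450 of the colon, had values of 4.24, 4.60, 11.36, 11.30 and 6.04. Its values in replicates 1, 2 and 5 were dim, so no fold is given. Reg3b, a secreted lectin that kills bacteria, had values of 7.54, 6.87, 12.23, 12.18 and 8.12, and its relative Reg3g had values of 5.48, 4.82, 9.82, 9.63 and 6.71. In all 3 genes replicates 3 and 4 were high and close to each other, replicates 1 and 2 were low, and replicate 5 lay nearer to the low pair. Car1, the carbonic anhydrase of colonocytes, had values of 8.57, 8.06, 12.81, 12.73 and 10.04, a 27.0-fold distance. Dmbt1, a mucosal scavenger receptor, had values of 7.26, 6.16, 11.22, 11.78 and 8.38, and Lypd8, which keeps flagellated bacteria off the epithelium, 6.26, 7.06, 10.55, 10.65 and 7.60. Gsdmc2, a gasdermin, was dim in replicates 1 and 2 at 4.36 and 4.64 and reached 9.33 and 9.07 in replicates 3 and 4.

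**Figure D2:**
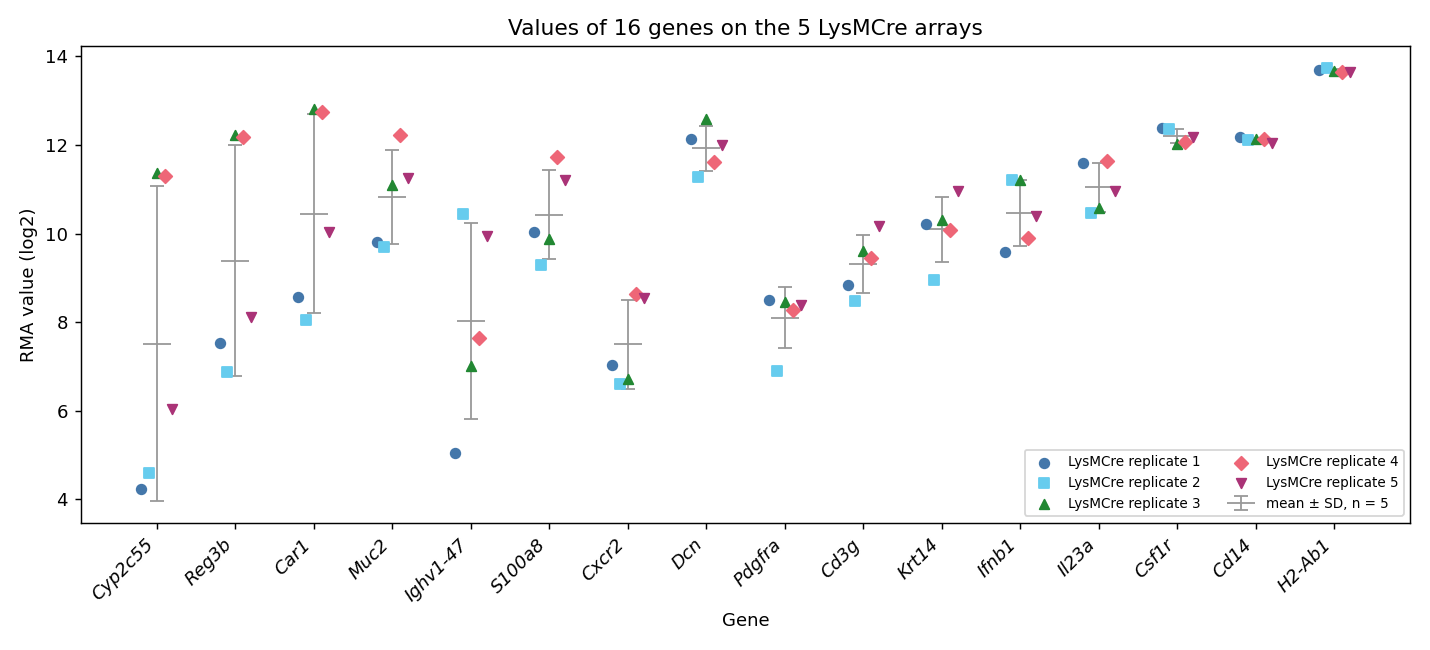
RMA values (y axis, log2) of 16 genes on the 5 LysMCre arrays, with 1 symbol per replicate and the mean ± SD (n = 5) in grey. Cyp2c55, Reg3b and Car1 are high in replicates 3 and 4, S100a8 and Cxcr2 in replicates 4 and 5, Cd3g and Krt14 in replicate 5, while Dcn and Pdgfra are lowest in replicate 2 and Csf1r, Cd14 and H2-Ab1 are level.

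Most of the 50 most variable genes had that order of mice. Among genes above the median level 810 of 11090 spanned more than 2-fold, 7.3% of them. Of the 50 of these genes with the highest SD, 41 had replicates 3 and 4 as their highest pair and 45 had replicates 1 and 2 as their lowest, with 40 meeting both conditions. Over all 22180 genes, 1063 met both, and among the 810 variable genes 200 did. The 50 genes included 11 of the epithelial list and further epithelial genes outside it, such as Cyp2c55 and Dmbt1. They were picked by their spread on these same arrays, so their shared order is a description and not support. The 50 also held 2 immunoglobulin genes and 3 genes without an established name. They ranged in SD down to 1.13 for Ngp, and the next gene, Ociad2, had an SD of 1.12, so the list has no natural end there.

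Reg3b and Reg3g lie on chromosome 6 and S100a8 and S100a9 on chromosome 3, near each other within each pair. Within each pair the values differed between the mice in nearly the same way. For that reason the regions before the start sites of 5 of the genes are shown. Each line gives the 250 bases before the start of transcription, 5′ to 3′, from RefSeq on GRCm38.p6, with any TATAAA, the core of a TATA box, on either strand in capitals.
Cyp2c55 (chr19:39006769-39007018, plus strand): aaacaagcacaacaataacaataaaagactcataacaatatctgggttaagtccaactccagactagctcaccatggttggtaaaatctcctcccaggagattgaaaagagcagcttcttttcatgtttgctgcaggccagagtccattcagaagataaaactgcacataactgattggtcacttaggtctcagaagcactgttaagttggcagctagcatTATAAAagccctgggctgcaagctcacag
Reg3b (chr6:78370635-78370884, plus strand): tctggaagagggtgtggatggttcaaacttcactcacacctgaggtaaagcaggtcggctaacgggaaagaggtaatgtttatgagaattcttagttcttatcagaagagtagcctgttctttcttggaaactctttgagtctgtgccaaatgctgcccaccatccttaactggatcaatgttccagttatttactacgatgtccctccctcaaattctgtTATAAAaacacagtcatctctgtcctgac
Reg3g (chr6:78468875-78469124, minus strand): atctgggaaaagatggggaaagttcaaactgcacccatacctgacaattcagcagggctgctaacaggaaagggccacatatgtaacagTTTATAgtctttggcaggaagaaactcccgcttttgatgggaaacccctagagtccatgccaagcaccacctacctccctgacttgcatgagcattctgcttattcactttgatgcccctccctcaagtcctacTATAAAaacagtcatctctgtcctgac
S100a8 (chr3:90668821-90669070, plus strand): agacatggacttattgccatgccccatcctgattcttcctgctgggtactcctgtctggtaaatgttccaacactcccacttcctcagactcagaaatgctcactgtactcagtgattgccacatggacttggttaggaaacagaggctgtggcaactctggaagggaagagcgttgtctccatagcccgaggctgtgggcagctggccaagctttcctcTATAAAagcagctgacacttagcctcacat
S100a9 (chr3:90695722-90695971, minus strand): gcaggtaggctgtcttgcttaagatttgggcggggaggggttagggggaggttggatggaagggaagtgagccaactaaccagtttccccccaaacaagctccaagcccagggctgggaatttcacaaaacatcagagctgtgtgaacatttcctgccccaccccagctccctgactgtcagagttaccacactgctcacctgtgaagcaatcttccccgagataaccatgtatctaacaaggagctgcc
TATAAA on the strand of the gene began 29 bases before the start in Cyp2c55 and Reg3b, 27 before in Reg3g and 30 before in S100a8, Reg3g had 1 more copy on the other strand, and S100a9 had none in its window. The windows of Reg3b and Reg3g shared an unbroken run of 20 bases and those of S100a8 and S100a9 one of 11. TATAAA on either strand was in 13% of 27025 windows of this length in the reference table and in 15.8% of the 38 windows found for the 50 most variable genes. In the last 40 bases on the strand of the gene it was in 2.55% of all windows and in 15.8% of the 38. In windows of genes above the median level, from which the 50 were drawn, these shares were 6.77% and 1.82%. The motif was picked after 13 others had also been looked at, a match is only a match of letters, and nothing about a factor follows from it.

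Within the epithelial list, 25 of 30 genes spanned more than 2-fold, and its genes differed together, though not all in one way. The list's median deviations were -0.91, -0.95, 0.40, 1.23 and -0.03, with replicate 4 highest for 22 genes and replicate 2 lowest for 20. The distance between the highest and the lowest array, 2.18, was 1.35 without replicate 4. Markers common to all epithelial cells followed it: Epcam, an adhesion molecule, had values of 7.92, 7.82, 9.16, 9.75 and 8.48, and Krt8, a keratin of simple epithelia, 8.39, 8.10, 10.44, 11.02 and 9.54. Genes of absorptive colonocytes and of goblet cells, separated after their values had been seen, came apart in replicates 3 and 5. The 9 absorptive genes had median deviations of -1.81, -1.50, 2.13, 1.76 and -0.58, with replicates 3 and 4 both high, while the 9 goblet genes had -0.47, -0.79, -0.05, 0.91 and 0.06, with replicate 4 alone well above the rest. Without replicate 4 the goblet profile spanned 0.86, against 1.70 with all 5 arrays, and 4 of its 9 genes remained over 2-fold, against 8. Muc2, the mucin that forms the mucus layer, had values of 9.82, 9.69, 11.10, 12.22 and 11.26, and Agr2, which folds that mucin, 8.80, 8.99, 9.92, 11.44 and 10.87, so replicate 5 exceeded replicate 3 in both. Tff3, a goblet cell trefoil peptide, had values of 8.41, 8.00, 8.81, 10.12 and 8.92, and Slc26a3, the chloride exchanger of surface colonocytes, 5.03, 4.75, 8.90, 7.57 and 5.41. Guca2a, the hormone guanylin, had values of 8.06, 7.54, 10.44, 10.80 and 8.34. Aqp8, a water channel, and Clca1, a goblet cell protein, were dim on all 5 arrays at 5.49 ± 0.19 and 5.60 ± 0.20. In sorted bulk cells, more epithelial cells and more RNA per epithelial cell cannot be told apart, and the part of epithelial RNA in any other result here was not tested.

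**Figure D3:**
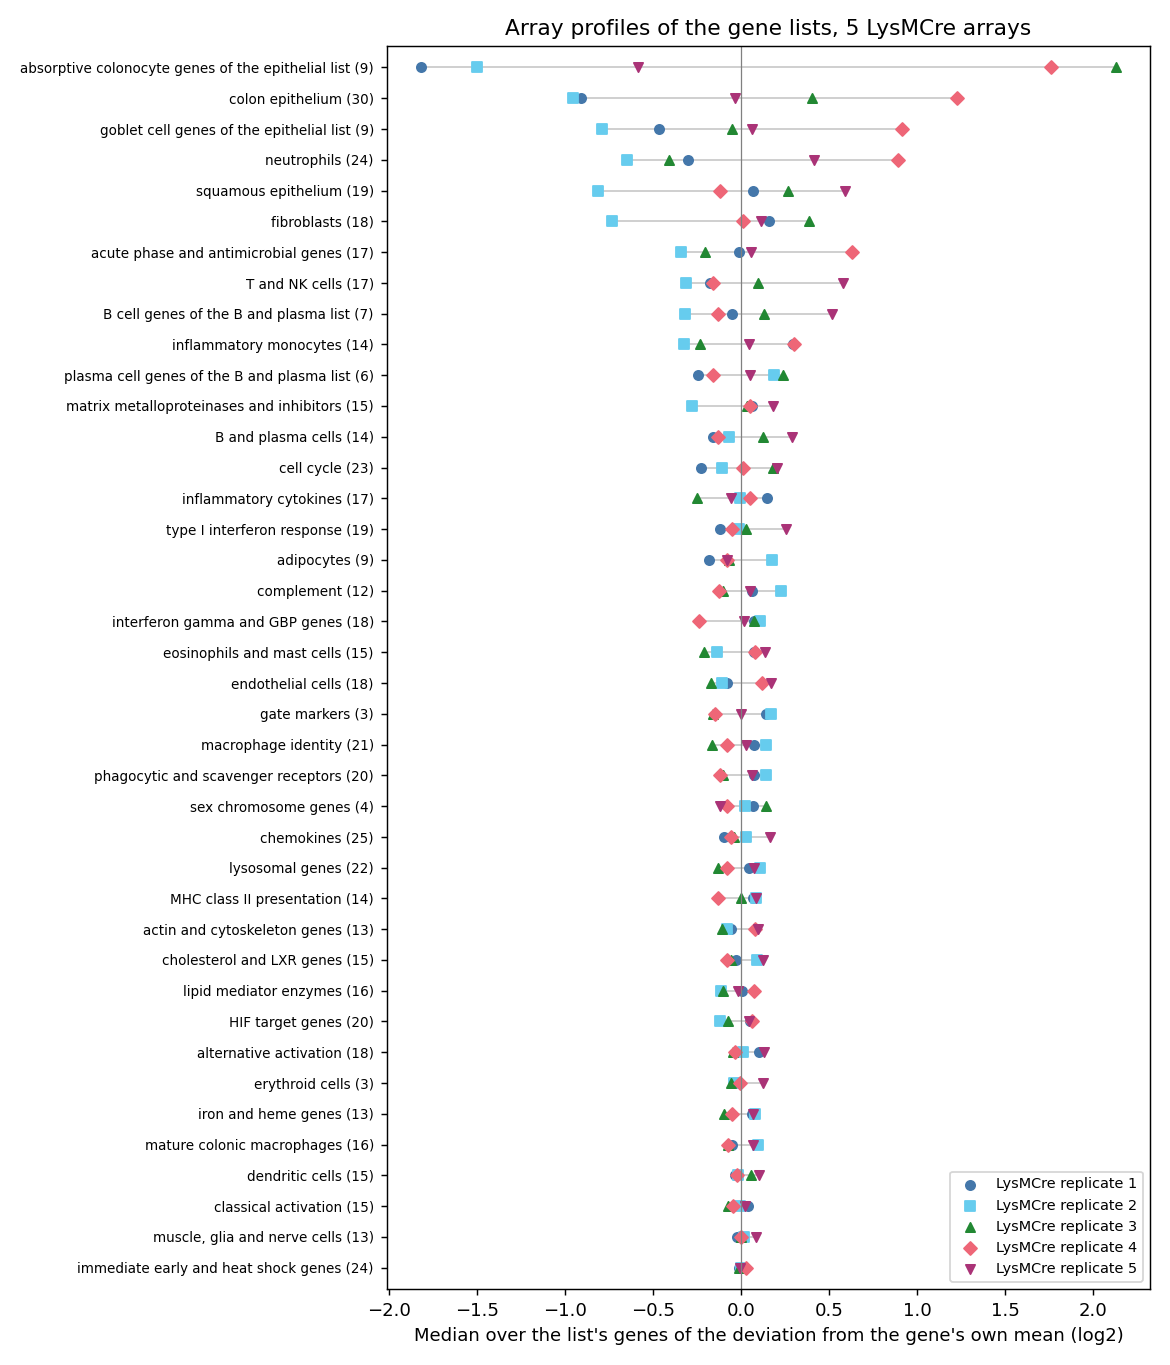
Median deviation of each array from the gene's own mean (x axis, log2) for 35 gene lists and 5 lists added after the values had been seen, sorted by the distance between the highest and the lowest array, with the number of measured genes in brackets. Epithelial genes span 2.18 and neutrophil genes 1.54, whereas macrophage identity genes span 0.31 and immediate early genes 0.04.

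Neutrophil genes differed in a second way, with replicates 4 and 5 high. Of 24 measured genes 18 spanned more than 2-fold, replicate 4 was highest for 20, and the median deviations were -0.30, -0.64, -0.41, 0.89 and 0.41. Without replicate 4 the profile spanned 0.98, against 1.54 with all 5 arrays, and 16 of 24 genes were over 2-fold. The goblet profile also had replicate 4 highest and replicate 5 next, at 0.91 and 0.06, so the pattern was partly shared. S100a8, a calprotectin subunit, had values of 10.03, 9.29, 9.88, 11.74 and 11.22, and its partner S100a9 10.49, 10.08, 10.64, 11.69 and 11.05. Cxcr2, the receptor that draws neutrophils into tissue, split the mice cleanly, with 8.64 and 8.54 in replicates 4 and 5 and 6.59 to 7.03 in the other arrays. The granule collagenase Mmp8 had values of 8.60, 8.25, 7.75, 10.25 and 9.65, the iron-binding lipocalin Lcn2 9.13, 8.38, 8.81, 10.64 and 9.95, and Retnlg, a resistin-like gene, 7.95, 7.11, 7.87, 9.84 and 8.86. Ly6g, the surface antigen that defines mouse neutrophils, was dim in replicates 1, 2 and 3 at 5.17, 5.16 and 5.98 and reached 7.81 and 6.42 in replicates 4 and 5.

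Not every granule gene took part. Ltf, lactoferrin of the secondary granules, had values of 7.79, 7.74, 9.98, 7.42 and 9.13, highest in replicate 3 and lowest in replicate 4. Camp, the cathelicidin of the same granules, averaged 5.77 ± 0.62 with its highest value in replicate 2 at 6.78, and Mpo and Elane, enzymes of the primary granules made by marrow precursors, were dim and even at 5.76 ± 0.11 and 5.89 ± 0.24. Il1r2, a decoy receptor for IL-1, was bright and even at 11.90 ± 0.15, and Csf3r, the G-CSF receptor, averaged 11.04 ± 0.30. Both are also made by monocytes and macrophages.

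The list profile of inflammatory monocyte genes set replicates 1 and 4 against replicates 2 and 3. Their median deviations were 0.30, -0.33, -0.23, 0.30 and 0.05, and 6 of 14 genes spanned more than 2-fold, or 4 without replicate 2 or replicate 4. Chil3, the chitinase-like protein Ym1, had values of 7.89, 5.57, 5.71, 7.51 and 7.31, Hp, the hemoglobin scavenger haptoglobin, 11.11, 10.34, 9.69, 11.44 and 10.82, and Vcan, the proteoglycan versican, 9.31, 8.21, 8.90, 9.45 and 8.72. In Chil3, Hp and Vcan replicates 1 and 4 were the highest pair, and Chil3 was dim in replicates 2 and 3. Plac8 and Ifitm6, also over 2-fold, instead had the order 4, 5, 1, 3, 2, which S100a8 and Cxcr2 had as well. Ly6c2, the surface marker of these monocytes, did not follow, with 11.17, 10.57, 11.36, 11.46 and 11.28, low in replicate 2 alone, and Ccr2, the receptor that lets them leave the marrow, had values of 8.97, 8.39, 8.31, 8.58 and 8.14.

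Acute phase and antimicrobial genes counted 10 of 17 over 2-fold, but that list shares Reg3b, Reg3g, Lcn2 and Hp with the lists above, and its profile spanned 0.21 without replicate 4, against 0.97 with all 5 arrays. Of its own members, Saa3, the serum amyloid A of macrophages, had values of 11.90, 12.05, 11.19, 12.39 and 11.29, and Lrg1, a leucine-rich glycoprotein, 7.65, 7.44, 7.09, 8.75 and 8.45. Pglyrp1, a peptidoglycan-binding protein of neutrophil granules, had values of 7.96, 8.00, 9.08, 10.17 and 9.30, and Wfdc21 9.03, 8.99, 9.16, 11.30 and 10.62. Replicate 4 was highest in all 4 of these genes, while replicate 5 was high in Lrg1, Pglyrp1 and Wfdc21 and low in Saa3. Other members went otherwise: over the 17 genes replicate 4 was highest for 9, replicate 2 for 4 and replicates 1 and 3 for 2 each. Saa2 was dim or near it at 5.24 ± 0.60.

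Fibroblast genes singled out replicate 2. Of 18 genes 13 spanned more than 2-fold, and replicate 2 was lowest for 17, with median deviations of 0.16, -0.73, 0.39, 0.01 and 0.11. Without replicate 2 only 2 of 18 genes were over 2-fold and the profile spanned 0.37, against 1.12 with all 5 arrays. Pdgfra, the receptor that marks fibroblasts, had values of 8.50, 6.88, 8.45, 8.27 and 8.39, and Col1a1, a chain of type I collagen, 9.21, 8.24, 9.41, 9.28 and 9.28. Without replicate 2 the remaining 4 arrays lay within 0.23 and 0.20 for these genes. The proteoglycans Dcn and Lum also had replicate 3 on top, Dcn with 12.14, 11.28, 12.59, 11.61 and 11.998 and Lum with 8.25, 7.44, 9.27, 7.92 and 8.56. Thy1, which T cells also carry, did not follow, with its highest value in replicate 5 at 7.52. Mgp, a calcification inhibitor, was high in replicate 3 alone at 10.27, with the other arrays between 9.22 and 9.40. Mfge8, which bridges macrophages to apoptotic cells and is also made by stromal cells, was low in replicate 2 at 7.48 and lay between 8.78 and 8.93 elsewhere, and Serping1, the C1 inhibitor, had values of 8.72, 7.63, 9.36, 8.17 and 8.41.

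T and NK cell genes were highest in replicate 5. Of 17 measured genes 10 spanned more than 2-fold and 14 had their highest value there, with median deviations of -0.18, -0.31, 0.10, -0.16 and 0.58. Without replicate 5 the count was 3 of 17, without replicate 2 it was 6, and the profile spanned 0.32 without replicate 5, against 0.89 with all 5 arrays. Cd3g, part of the T cell receptor complex, had values of 8.84, 8.48, 9.60, 9.44 and 10.17, and Cd3d 7.16, 7.07, 8.01, 8.00 and 8.56. Cd8b1, the beta chain of CD8, stood at 9.01 in replicate 5 and between 7.74 and 8.02 elsewhere, and Gzmb, the protease of cytotoxic granules, had values of 7.92, 7.79, 8.45, 7.18 and 9.17. Ccl5, which macrophages make as well, was bright and even at 12.52 ± 0.14, and Ncr1, the marker of NK cells, was dim at 5.20 ± 0.23. Outside the list, Fasl, the death ligand of cytotoxic lymphocytes, reached 7.87 in replicate 5 and lay between 6.64 and 6.85 elsewhere.

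B cell genes leaned the same way and plasma cell genes did not. The 7 measured B cell genes, separated after the values had been seen, had median deviations of -0.05, -0.32, 0.13, -0.13 and 0.52, and 4 of them spanned more than 2-fold, or 1 of 7 without replicate 5. Ms4a1, which encodes CD20, had values of 6.98, 6.19, 7.10, 6.63 and 7.73, and Cr2, the complement receptor of B cells, 6.72, 6.05, 6.76, 7.21 and 7.65. In the 6 plasma cell genes replicate 1 was lowest for 5, with median deviations of -0.24, 0.19, 0.24, -0.16 and 0.05. Mzb1, a chaperone of antibody secretion, had values of 8.89, 9.95, 10.41, 9.67 and 10.03, and Derl3, which clears misfolded proteins from the endoplasmic reticulum, 7.34, 8.23, 8.50, 7.78 and 8.06. Replicate 1 was also the lowest array for 6 of the 10 variable immunoglobulin genes.

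Squamous epithelial genes, a list added after keratins had been seen among the variable genes, are typical of the skin and the anal canal. They are not typical of the lining of the undamaged colon, and where their signal came from here was not tested. Of 19 measured genes 15 spanned more than 2-fold, replicate 5 was highest for 14 and replicate 2 lowest for 15. Without replicate 2 the count was 8 of 19. Krt14, a keratin of the basal layer, had values of 10.21, 8.94, 10.31, 10.07 and 10.97, Krt6a, a keratin of stressed epithelium, 10.07, 8.79, 10.17, 9.75 and 10.75, and Krt17 7.49, 6.31, 8.48, 7.94 and 8.77. None of these values was dim, though Krt17 lay close to that level in replicate 2, whereas Trp63, the transcription factor of basal cells, was dim and even at 5.71 ± 0.05.

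**Figure D4:**
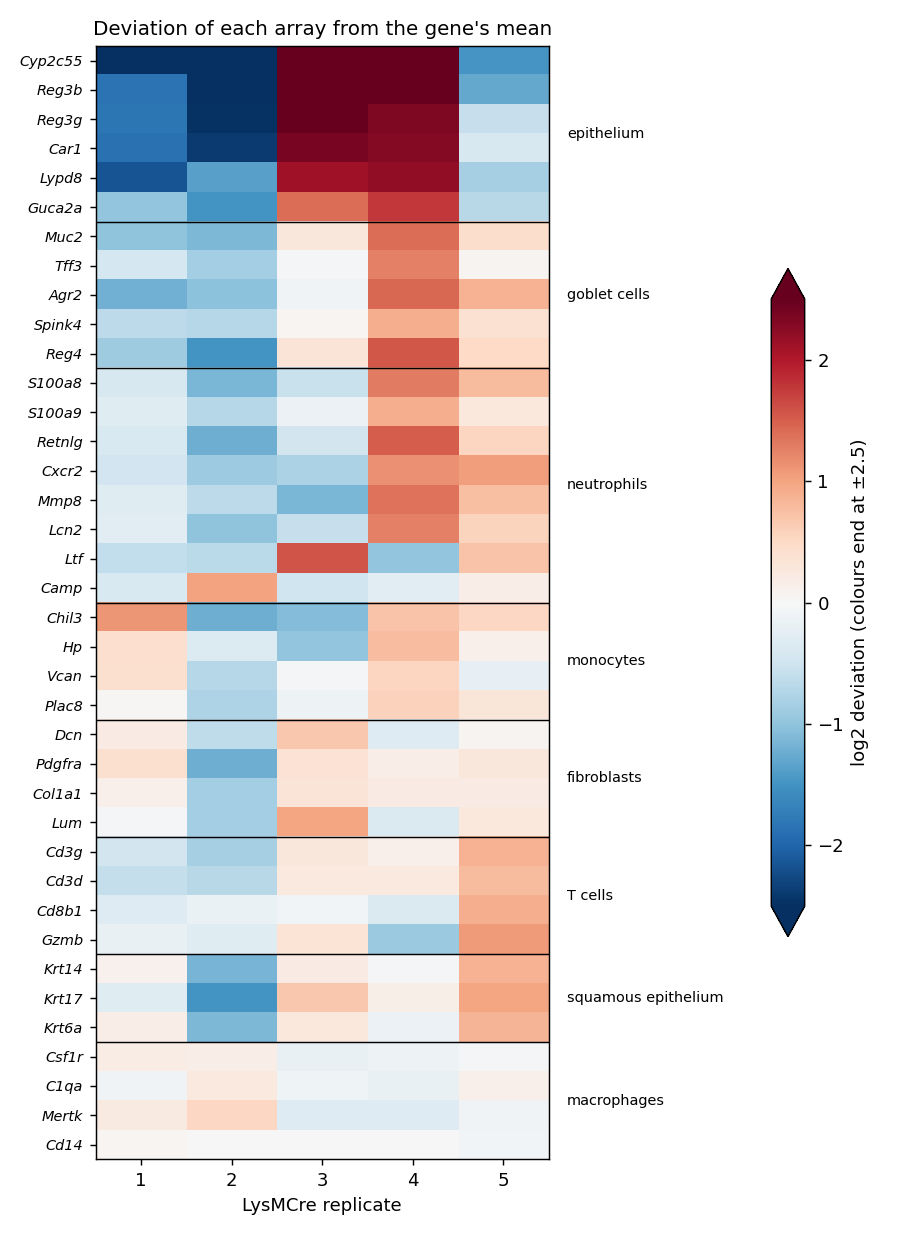
Deviation of each LysMCre array (columns) from the gene's mean on the log2 scale (colour, ending at ±2.5) for marker genes grouped by cell type (rows). Epithelial genes are high in replicates 3 and 4, goblet cell and most neutrophil genes in replicate 4, T cell and squamous genes in replicate 5, and fibroblast genes are low in replicate 2, while macrophage genes are pale throughout.

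Cytokines and chemokines, many of which macrophages make, also held genes that differed between the mice. Which of the sorted cells their signals came from was not tested. Of 17 inflammatory cytokine genes 5 spanned more than 2-fold, 29.4% against 5.81% of all genes. Tnf averaged 12.17 ± 0.22, Il10, an anti-inflammatory cytokine, 11.21 ± 0.29 and Il18 8.89 ± 0.06. Ifnb1, the gene of interferon β, had values of 9.57, 11.20, 11.21, 9.90 and 10.40, highest in replicates 2 and 3. Il23a, the p19 subunit of IL-23, ran the other way with 11.60, 10.46, 10.57, 11.64 and 10.96, and so did Il12a, the p35 subunit of IL-12, with 7.82, 6.46, 6.67, 7.49 and 7.26. For these 3 genes replicates 1 and 4 thus stood on one side and replicates 2 and 3 on the other, as in the monocyte list profile. Csf3, the growth factor G-CSF, had values of 9.07, 8.29, 7.81, 8.89 and 8.15, again with replicates 1 and 4 highest. Il1f9, an IL-36 cytokine, had values of 10.22, 9.24, 9.95, 11.61 and 11.05, which is the order of arrays that S100a8 had. Nos2, the inducible nitric oxide synthase, was high in replicate 1 at 8.56 and lay between 7.33 and 7.64 elsewhere, and Arg1, its competitor for arginine, had values of 8.67, 8.65, 9.35, 9.27 and 9.15.

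Of 25 chemokine genes 7 spanned more than 2-fold, and 4 did without replicate 2 or without replicate 4. Ccl3, Cxcl2 and Cxcl16 were bright at 12.16 ± 0.27, 12.33 ± 0.12 and 12.87 ± 0.13. The monocyte attractant Ccl7 had values of 8.93, 10.17, 9.52, 9.48 and 9.79, and its relative Ccl12 7.08, 7.85, 7.20, 6.59 and 7.10, both highest in replicate 2. Cxcl3, an attractant of neutrophils, had values of 10.35, 10.34, 10.30, 11.72 and 11.19, and Ppbp, a platelet chemokine, 8.76, 8.48, 10.40, 9.22 and 10.05. Among the metalloproteinases and their inhibitors 7 of 15 spanned more than 2-fold, or 4 without replicate 2 or replicate 3, but Mmp12, Mmp13 and Mmp14, which macrophages make, did not. Mmp12, the macrophage elastase, averaged 11.31 ± 0.24, Mmp13 11.96 ± 0.22 and Mmp14 12.28 ± 0.20. Mmp10, stromelysin 2, had values of 7.79, 6.84, 7.21, 8.27 and 8.58, and Mmp3, stromelysin 1, 6.83, 5.79, 6.69, 6.77 and 7.18.

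Enzymes of lipid mediators counted 3 of 16 over 2-fold, or 2 without replicate 2, 3 or 4. They were Alox15, Alox5 and Alox5ap, while Lta4h and Ltc4s of the leukotriene path did not span more than 2-fold. Without replicate 2 the SD of Alox5 was 0.33, against 0.60 with all 5 arrays. Ptgs2, the inducible cyclooxygenase, was bright at 12.58 ± 0.24. Alox5, which makes leukotrienes, had values of 7.53, 6.51, 7.31, 8.04 and 7.86, and Alox5ap, which feeds it, 11.27, 10.83, 10.54, 11.69 and 11.15, with replicate 4 highest in both. Receptors for dying cells and modified lipids counted 2 of 20 over 2-fold, or 1 without replicate 2 or replicate 4, and Cd36, a fatty acid receptor, had values of 8.19, 8.81, 8.87, 7.64 and 8.97, here with replicate 4 lowest. Axl, a receptor of the same family as Mertk, averaged 11.52 ± 0.21.

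Genes of dendritic, endothelial and mast cells and of eosinophils spanned more than 2-fold in 11.1 to 26.7% of each list, against 5.81% of all genes. Of 15 dendritic cell genes 2 spanned more than 2-fold, or 0 without replicate 2 or replicate 4: Flt3, a growth factor receptor of dendritic cells, had values of 7.11, 6.21, 7.12, 7.52 and 7.12, while Itgax, which encodes CD11c and is shared with colonic macrophages, averaged 11.30 ± 0.27. Of 18 endothelial genes 2 spanned more than 2-fold, or 1 without replicate 5. Selp, the P-selectin of endothelium and platelets, had values of 6.63, 6.04, 6.90, 8.09 and 8.03, high in replicates 4 and 5 as the neutrophil genes were, while Pecam1, which myeloid cells also carry, averaged 9.92 ± 0.12. Of 15 genes of eosinophils and mast cells 4 spanned more than 2-fold. Mcpt1, a protease of mucosal mast cells, had values of 6.74, 5.11, 4.91, 4.81 and 6.86, above the dim level in replicates 1 and 5 alone. Prg2, the major basic protein of eosinophils, had values of 6.90, 7.95, 8.17, 7.63 and 8.32, lowest in replicate 1.

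The median SD was 0.242 for type I interferon response genes and 0.271 for genes induced by interferon γ, against 0.167 for all genes. Type I interferon response genes counted 2 of 19 over 2-fold, or 0 without replicate 1, with replicate 5 highest for 10, and Ifit1, an antiviral RNA-binding protein, had values of 7.85, 8.69, 8.86, 8.50 and 9.08. Isg15, a ubiquitin-like protein, averaged 11.15 ± 0.29. Genes induced by interferon γ, guanylate-binding proteins among them, counted 3 of 18 over 2-fold, or 1 without replicate 4, which was lowest for 13, with median deviations of 0.08, 0.11, 0.08, -0.24 and 0.01. Gbp4 had values of 10.96, 10.97, 10.59, 9.94 and 10.27, and Gbp8 9.06, 9.25, 9.28, 7.83 and 8.87. Cell cycle genes had replicate 1 lowest for 14 of 23 genes and 4 over 2-fold, or 0 without that replicate, and Plk1, a mitotic kinase, had values of 6.54, 7.23, 7.41, 7.68 and 7.56. Mki67, the proliferation marker, went against the list with 11.32, 11.49, 11.20, 10.88 and 10.99.

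The order of the 5 arrays in each gene shows which genes differed together. The 810 variable genes could follow 120 orders and showed 102 of them, with a few orders far more often than the rest. The order with replicate 4 highest, then 3, 5, 1 and 2 was followed by 103 genes, 12.7% of the 810 and 1.49% of all genes, among them Pigr, which carries IgA across the epithelium, Cdh17, Muc13, Vil1 and the epithelial transcription factors Hnf4a and Elf3. Each of the orders named next was followed by 3.33 to 7.04% of the 810 and by 0.712 to 1.48% of all genes. The order 4, 3, 5, 2, 1 was followed by 57 genes, with Fabp2, a fatty acid carrier of enterocytes, Krt19 and the enteroendocrine gene Chgb. The order 4, 5, 3, 1, 2 was followed by 37 genes, which held both goblet cell genes (Muc2, Tff3, Spink4 and Reg4) and neutrophil genes (S100a9, G0s2 and Cd177). The order 4, 5, 1, 3, 2 was followed by 35 genes, 5 of the neutrophil list with S100a8, Cxcr2 and Retnlg, and also Alox15, Fpr2 and Il1f9. The order 3, 1, 5, 4, 2 was followed by 36 genes, 5 of them of the fibroblast list, together with the matrix genes Postn, Tnc and Ogn. The order 3, 4, 5, 1, 2 was followed by 28 genes, with Reg3b, Reg3g and Car1. The order 5, 3, 4, 1, 2 was followed by 27 genes, 6 of the T and NK cell list with Cd3e, Cd3d and Cd3g and 3 squamous genes with Krt16 and Krt17. In each of these orders replicate 1 or 2 was lowest. Of the 810 genes, 429 (53%) had their lowest value in replicate 2, against 20.4% of all genes above the median level. Replicate 1 was lowest for 180 (22.2%), near its share of 22.4% of the genes above the median level. Replicate 4 was the highest array for 325 of the 810 and replicate 3 for 229, while over all genes each of the 5 arrays was highest for 17.4 to 22.8%.

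Among genes above the median level, single arrays had genes of their own. In replicate 2, 26 genes lay more than 2-fold below every other array, against 0 to 4 genes in any other replicate. The 26 included Scube1 with 9.01, 7.38, 9.21, 8.85 and 9.01, Pcdh7, a protocadherin, with 8.42, 6.604, 8.08, 8.24 and 8.06, and Serpinb1a, an inhibitor of neutrophil proteases, with 8.26, 6.84, 9.07, 8.91 and 8.70. Above every other array by more than 2-fold stood 13 genes in replicate 4, 8 in replicate 3 and 1 in each of the others. In replicate 4 they included Clca4a, an epithelial protein, with 5.12, 6.50, 6.57, 8.51 and 6.67, and Stfa1, a cysteine protease inhibitor of myeloid cells, with 6.45, 5.65, 6.99, 8.32 and 7.002. In replicate 3 they included Psca, a surface protein of epithelia, with 6.42, 6.56, 8.79, 6.23 and 6.94, and the defensin Defb14 with 6.58, 5.94, 8.64, 6.26 and 7.47. Mid1, a ubiquitin ligase whose gene lies at the pseudoautosomal boundary, was the 1 gene that stood out above in replicate 2, with 8.76, 9.85, 8.75, 8.06 and 8.42.

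The genes that differed most between the LysMCre mice also tended to spread in the 4 arrays of the other genotype, which the ranking had not used. Their median SD was 1.40 on the LysMCre arrays and 0.519 on the LysMCre;Arntfl/fl arrays, where the median of all genes above the median level was 0.150, and 47 of the 50 lay over that median. In the LysMCre;Arntfl/fl arrays 64% of the 50 genes spanned more than 2-fold, against 4.06% of the genes above the median level. Reg3g had an SD of 2.33 on the LysMCre arrays and 1.02 on the LysMCre;Arntfl/fl arrays, and Klk1, a tissue kallikrein, one of 1.43 and 1.21. Some had a far smaller SD in the other arrays, as Car1 with SDs of 2.25 and 0.21 and Guca2a with 1.48 and 0.07. Outside the 50, Muc2 had SDs of 1.06 and 0.93 and Serpinb1a of 0.90 and 0.05. Also outside the 50, the fibroblast genes Dcn and Igfbp5 had the larger SD there, Dcn with SDs of 0.50 and 0.70 and Igfbp5, which encodes a growth factor binding protein, with 0.59 and 1.098.

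**Figure D5:**
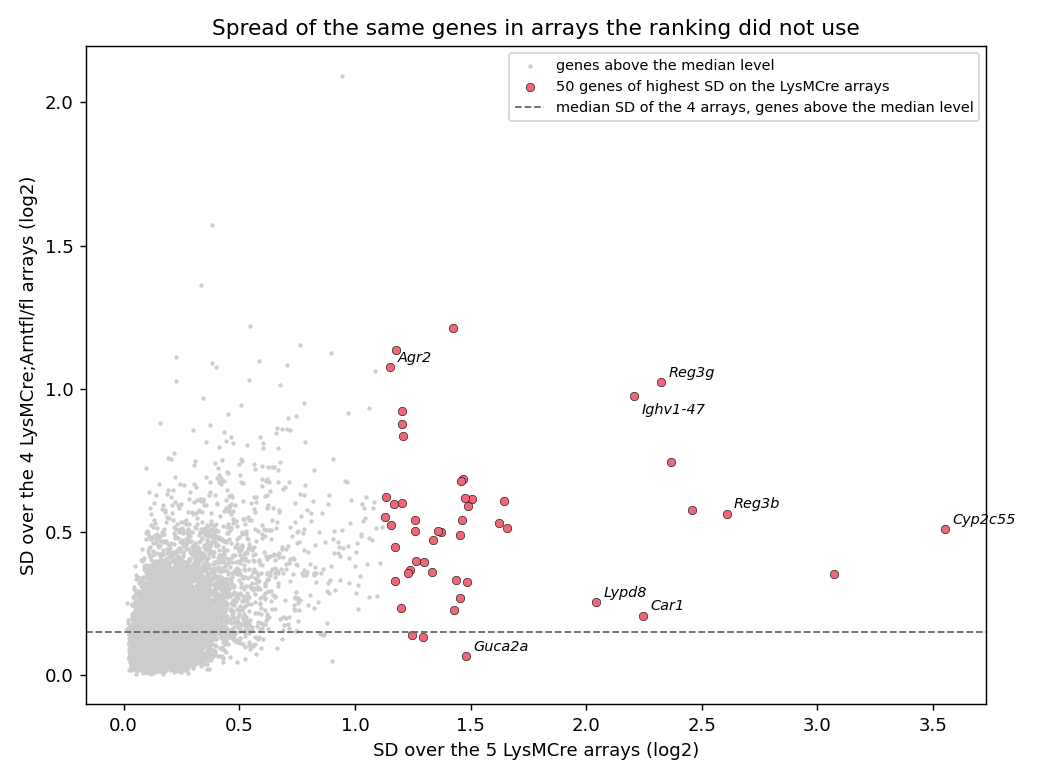
SD over the 5 LysMCre arrays (x axis, log2) and over the 4 LysMCre;Arntfl/fl arrays (y axis, log2) of 11090 genes above the median level, with the 50 genes of highest SD on the LysMCre arrays in red. The dashed line is the median SD of the grey genes on the LysMCre;Arntfl/fl arrays, 0.150, and 47 of the 50 lie above it.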

How the data were processed

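Lamina propria macrophages of 9 mice had been hybridised to Affymetrix Mouse Gene 2.0 arrays after amplification of small amounts of RNA, 1 array per mouse. The deposited values are log2 signals, background-corrected, quantile-normalized and summarised per probe set by RMA by the authors, with Partek 6.6 named in the submitters' processing notes. Which annotation release was used, and whether probe sets were filtered, is not given in the sources used here. Of 34365 probe sets, 23521 carry 1 symbol of the platform annotation, and the brightest on the LysMCre arrays stood for each gene. Means, SDs (n = 5), ranges and array orders were computed with Python 3.11.15 and pandas 2.3.3 and checked on simulated arrays. No test was run, since a single group was described, and correlations over fewer than 6 arrays were left out. No counts underlie the values, so the number of arrays limits the precision.

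A list profile is the median, over a list's genes, of each array's deviation from the gene's mean. The 35 gene lists, the genes shown and the ranks were chosen with earlier results of these data known, and 5 further lists after the values had been seen. Genes named are the gate and macrophage genes, the 30 brightest, the 40 most variable above the median level, up to 6 of highest SD and 4 of highest mean in each list, those farthest above or below the other arrays, and the 12 least variable with a mean of 10 or more. Members of an array order and a few other genes were picked after their values had been seen. Predicted genes, small RNAs and pseudogenes were counted and not named. Alternatives were another centring, a repeated quantile normalization, other thresholds, other probe set rules and leaving out each array. The mean expression of the genotypes was not compared.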

Additional observations from a re-analysis of the deposited data

Results flagged for a closer look

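A value is given here where 1 of the 5 arrays lay so far from the nearest other that their gap exceeded 0.71 of the whole range. Chance gives such a gap in about 1 of 20 groups of values. It was seen in 5.37% of all 22180 genes and in 5.19% of the 810 variable genes above the median level. Of the 40 list profiles 2 had it, and so did 15 of the 188 named genes looked at. The single values stand as they are and nothing is read from their number.

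Replicate 2 stood apart in 6 genes, all below the other arrays. Mfge8 was at 7.48 there, with the nearest other array at 8.78. Pdgfra was at 6.88 against 8.27, Col1a1 at 8.24 against 9.21 and Igfbp5 at 7.08 against 8.14, all genes of stromal cells. Scube1, a secreted glycoprotein, was at 7.38 against 8.85, and Pcdh7 at 6.604 against 8.06.

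Replicate 5 stood above the others in Cd8b1 at 9.01 against 8.02, in Fasl at 7.87 against 6.85 and in Bcl2a1a at 12.07 against 11.99. Replicate 4 stood below them in Gbp8 at 7.83 against 8.87 and in the macrophage elastase Mmp12 at 10.88 against 11.37. The list of interferon γ genes had its replicate 4 at -0.24, with the nearest other array at 0.01. Replicate 3 stood above the others in Mgp at 10.27 against 9.40 and in Psca at 8.79 against 6.94. Replicate 1 was apart in Nos2, above the others at 8.56 against 7.64, and in Ighm, below them at 14.09 against 14.16. The list of erythroid genes, of which 3 dim genes were measured, had replicate 5 at 0.13 and the nearest other array at -0.01. The cause of these values was not tested.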

How the results depend on the processing

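No paired analysis was possible because 1 group was described and no test was run. The count of genes spanning more than 2-fold, 1289 in all, was 810 among genes above the median level, 713 for an SD above 0.5, 365 at more than 3-fold and 5386 at more than 1.5-fold. It lay between 901 and 1103 when each array was left out, and between 1244 and 1261 with arrays centred or quantile-normalized again. It was 1223 without the epithelial, neutrophil, fibroblast and T cell lists. These lists hold only 30, 24, 18 and 17 measured genes, so leaving them out could move the count only a little. Epithelial genes outside them, such as Pigr, stayed in that count. The count of genes with a mean of 10 or more, 1240, was 2733 at 9 and 481 at 11, and 1225 to 1248 with each array left out. Of the 50 most variable genes, 22 stayed among the first 50 when a mean of 8 or more was asked for, and 38 to 46 when an array was left out.

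Distances between the highest and the lowest array of a list were less stable. That of T and NK cells lay between 0.32, without replicate 5, and 0.91. That of fibroblasts lay between 0.37, without replicate 2, and 1.17. That of acute phase genes lay between 0.21, without replicate 4, and 1.08, and was 1.36 for members above the median level. The epithelial distance was 3.94 for its absorptive genes alone, a choice made after the values had been seen. That of macrophage identity genes lay between 0.23 and 0.35 with an array left out and was 0.37 with arrays centred on their medians. For 188 of the genes named above the SD was taken again without each array. Of these, 64 had an SD that shrank by more than 1.5 times without a single array, most often replicate 2 (22 genes). The arrays carry no detection call here, so dim values under the olfactory level cannot be told from background.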

Other observations

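Probe sets without a single gene symbol were not used above. Of 9024 probe sets with no symbol, 818 (9.06%) spanned more than 2-fold between the 5 LysMCre arrays and 326 (3.61%) had a mean of 10 or more. Of 1820 with several symbols, 136 (7.47%) spanned more than 2-fold and 132 (7.25%) had a mean of 10 or more.

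Genes of short RNAs varied more often than the 5.81% of all genes. Of 74 small nucleolar RNA genes, which guide the modification of ribosomal RNA, 27 (36.5%) spanned more than 2-fold, with replicate 3 highest for 12 of the 27. Of 484 microRNA genes 63 (13%) did. Genes of cytosolic ribosomal proteins counted 3 of 61 (4.92%) and genes encoded by mitochondria 1 of 10.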
